A study of Bos taurus with 12 samples.

Results

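Collagen genes were examined in the cell layers of bovine ovarian follicles. The members were all probe sets (groups of array probes for 1 transcript) whose platform symbol was COL, digits, A, digits. This gave 48 probe sets for 23 genes, out of 24016 probe sets and 9155 named genes. The array carried 1 probe set for 7 of these genes and several for 16. Signals came from 12 Affymetrix arrays of 6 groups, each of 2 replicates. The layers were granulosa cells, an epithelium without vessels next to the follicular fluid, and theca cells, which form the vascularised outer wall. Both were taken from small (up to 5 mm), medium (5 to 10 mm) and large (above 10 mm) follicles. No group was treated. All ovaries came from cycling, nonpregnant heifers in the follicular stage. Each RNA sample pooled cells of 20 to 40 follicles of one size, per the labels' protocols, and per the design text ovaries of 6 to 10 animals, so the spread between animals is not seen and p-values measure the spread between pools. Titles gave the groups; the description field of every sample names theca.

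Collagens are extracellular proteins of 3 chains wound into a triple helix. Fibrillar collagens build the fibres that give stroma its strength, type IV collagen forms the sheet of basement membranes, and type VI forms beaded filaments between the fibres. Fibril-associated collagens sit on the fibres, and multiplexins lie in or near basement membranes of vessels and epithelia. In the follicle, a basal lamina separates the granulosa from the theca, and the theca also holds fibroblasts and vessels that have matrix of their own.

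The labels were checked against cell type markers. The summed signal of 15 granulosa markers was 26207 to 40278 on granulosa arrays and 6914 to 26357 on theca arrays. The top theca value, on large replicate 2, lay just above the lowest granulosa value. On that array 10 of the 15 markers were below the granulosa range, KRT18 among them (56.7 against 801 to 5964), 4 were within it, INHBA and FST among them, and CYP19A1, the aromatase, was above it (4279 against 113 to 3134). For the 10 theca steroid cell markers the sums were 5557 to 8665 in granulosa and 22324 to 34831 in theca. No marker was at 0 on any array. A pair of arrays stood apart in RNA measures. Theca small replicate 1 had a GAPDH 3' over 5' signal ratio of 8.36, against 0.984 to 1.30 on the others, and granulosa large replicate 1 had an actin ratio of 21.0, against 2.39 to 11.2 on the others. The latter array also had a median signal of 48.7, against 33.6 to 39.1 elsewhere.

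Most collagens with a usable signal were higher in theca. Of 36 collagen probe sets that passed the filter on dim signals, 20 were called lower in granulosa over all sizes and 0 higher. The background over all tested probe sets was 11% called lower and 13.2% called higher. Some of the 20 passed the filter through theca groups alone, so their highest group had to be a theca group. A call is an adjusted p under 0.05 in limma over all 17478 tested probe sets. By gene, with the brightest probe set standing for each, 11 of 21 tested genes were lower, in 5 of the structural groups. Among them COL5A3, COL11A1 and COL13A1 passed the filter through theca groups alone. The median difference of the 21, granulosa minus theca on the log2(signal + 16) scale, was -0.99, beside 0.10 for all tested probe sets. Folds on this scale understate the change of dim genes. In bulk samples, fewer cells of a type and less RNA per cell cannot be told apart. All 6 granulosa arrays lay below all 6 theca arrays for 12 collagen probe sets, where 5.15% of all probe sets did so. Without the pair of arrays that stood apart in RNA measures, COL1A2 gave -0.96 in place of -1.16, and COL27A1 -0.55 in place of -0.99. That fit leaves 1 array in small theca and 1 in large granulosa.

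**Figure D1:**
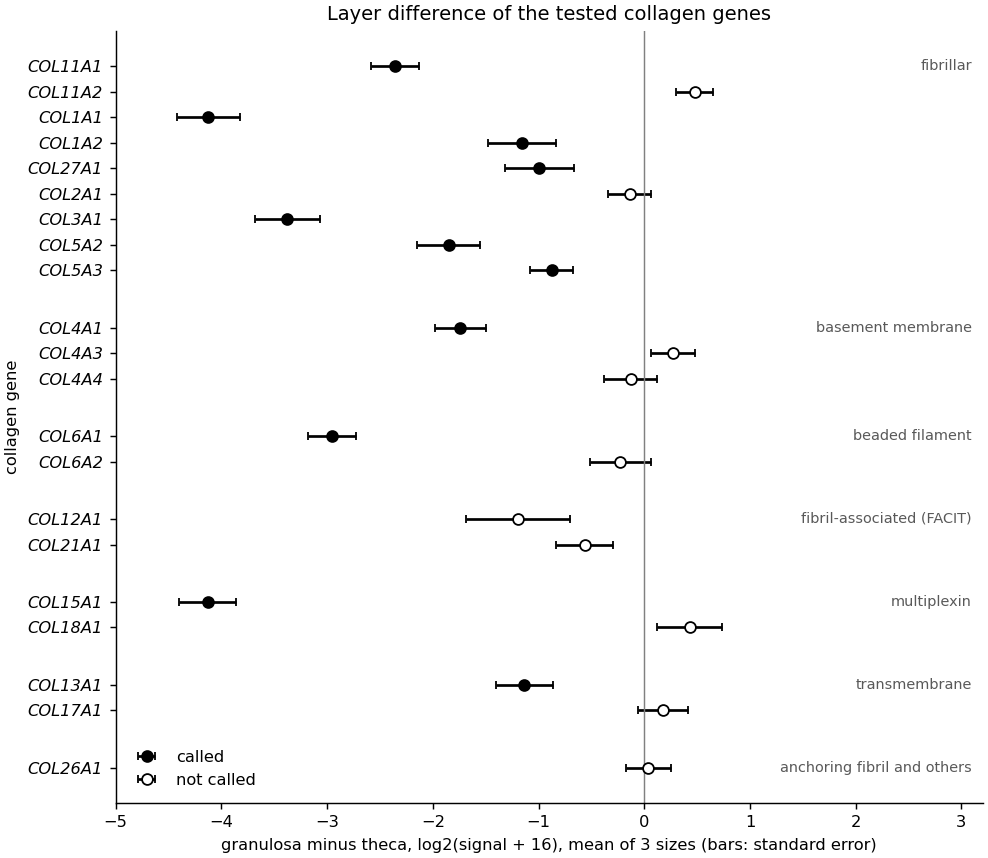
Difference between granulosa and theca (log2(signal + 16), mean of 3 sizes) for the 21 tested collagen genes, by structural group; bars are standard errors of the limma model and filled points are called. The 11 filled points lie left of 0, from -0.88 to -4.13.

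Fibrillar collagens held 7 of the 11 genes, and 7 of 9 tested members of this group were lower in granulosa. COL1A1 encodes the main chain of type I collagen, the chief protein of stromal fibres. Its granulosa signals were 159 and 394 in small, 266 and 69.9 in medium, and 407 and 274 in large follicles. In theca they were 4793 and 3800, 4976 and 4859.7, and 4366 and 3032 in the same order. The highest granulosa array was far below the lowest theca array. The difference was -4.12 ± 0.30 (standard error, 17.4-fold, limma adjusted p = 4.15e-07, n = 6 arrays per layer). A dimmer COL1A1 probe set gave -1.42 and was called as well. It passed the filter through the theca groups only, so theca had to be its higher layer.

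COL3A1, the single chain of type III collagen, which is found with type I in soft and distensible tissue, ran the same way. Granulosa arrays read 774 and 1029.6 in small, 1093 and 224 in medium, and 591 and 703 in large follicles. Theca arrays read 6140.3 and 8654, 8198 and 8449.9, and 6679 and 4809. The layers did not overlap, and the difference was -3.38 ± 0.31 (10.4-fold, limma adjusted p = 3.53e-06). Its other probe set gave -3.69.

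COL1A2, the second chain of type I collagen, stayed bright in granulosa. Its granulosa signals were 2788 and 3969 in small, 5069 and 1135 in medium, and 1611 and 3819 in large follicles. Theca gave 5959 and 6194, 6708 and 6333, and 6100 and 5152. The highest granulosa array, medium replicate 1, lay just under the lowest theca array. The difference was -1.16 ± 0.32 (2.23-fold, limma adjusted p = 0.0185) and -1.65 on its other probe set. The call on the brightest probe set ended under 6 of 21 alternatives, with limma adjusted p-values of 0.0520 once granulosa small replicate 1 was left out, 0.0560 once granulosa large replicate 1 was, and up to 0.0706 in all.

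On the brightest probe sets the layer difference was thus unequal between the chains of type I collagen. The dim second probe set of COL1A1, given above, did not show a larger difference than the second one of COL1A2. That pair was not tested. The log2 difference of COL1A1 minus that of COL1A2 was -2.97, with no overlap between the layers. An exact two-sided permutation test, with layers exchanged within sizes, gave p = 0.00926, the smallest it can give, and an adjusted p of 0.0216 over the 7 pairs of chains of one collagen type that were compared. These pairs were chosen after the values had been seen.

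Type V collagen, which takes part in starting fibrils, was measured through COL5A2 and COL5A3. COL5A2 read 121 and 101 in small, 178 and 45.8 in medium, and 60.4 and 165 in large granulosa. In theca it read 261 and 450, 651 and 654, and 348 and 260, highest on both medium arrays. The layers did not overlap, at -1.85 ± 0.29 (3.61-fold, limma adjusted p = 0.000538). COL5A3 was dim, at 0.8 to 19.0 on granulosa arrays. It read 80.1 and 60.4 in small, 55.4 and 50.3 in medium, and 5.0 and 14.1 in large theca, so the large theca arrays fell into the granulosa range. It passed the filter only through small and medium theca, and its difference of -0.88 ± 0.20 was called (limma adjusted p = 0.00702), though not with log2(signal + 1) (adjusted p = 0.0525) or without granulosa medium replicate 2 and theca large replicate 2 (0.0877).

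COL11A1, the type XI chain best known from cartilage fibrils, had granulosa signals of 12 and 22.4 in small, 21.0 and 7.5 in medium, and 28.6 and 11.1 in large follicles. Theca gave 114 and 187, 217 and 137, and 152 and 116. This gap was -2.36 ± 0.23 (5.13-fold, limma adjusted p = 6.49e-06), and the mean signal exceeded the filter in the theca groups only. The gene had 7 probe sets, which disagreed. Of the other 6, 4 did not pass the filter, 1 gave -0.59 and was called, and 1 gave -0.19 and was not. COL27A1, another fibrillar chain, was 75.0 to 336 in granulosa and 140 to 1275 in theca, with overlap. Its difference of -0.99 ± 0.32 (limma adjusted p = 0.0391) lost its call under 13 of 21 alternatives, with adjusted p-values up to 0.197. Leaving out 1 array ended it for granulosa small replicate 1, medium replicate 2 and large replicate 1, and for theca small replicate 1 and each medium and large theca replicate.

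The remaining fibrillar genes were dim. COL2A1, the main collagen of cartilage, stayed at 8.0 to 34.4 on its brightest probe set, with a difference of -0.14 (limma adjusted p = 0.655). COL11A2 read 40.2 and 22.0 on the large granulosa arrays and 1.9 to 4.6 on the other 10 arrays. It passed the filter through large granulosa alone, so that group had to be the higher one. In large follicles it was called higher in granulosa (1.34 ± 0.31, limma adjusted p = 0.0275), the single collagen called in that direction. Its limma adjusted p was 0.160 once granulosa large replicate 1 was left out, at a value of 1.05, and 0.176 or 0.166 once theca large replicate 1 or 2 was.

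**Figure D2:**
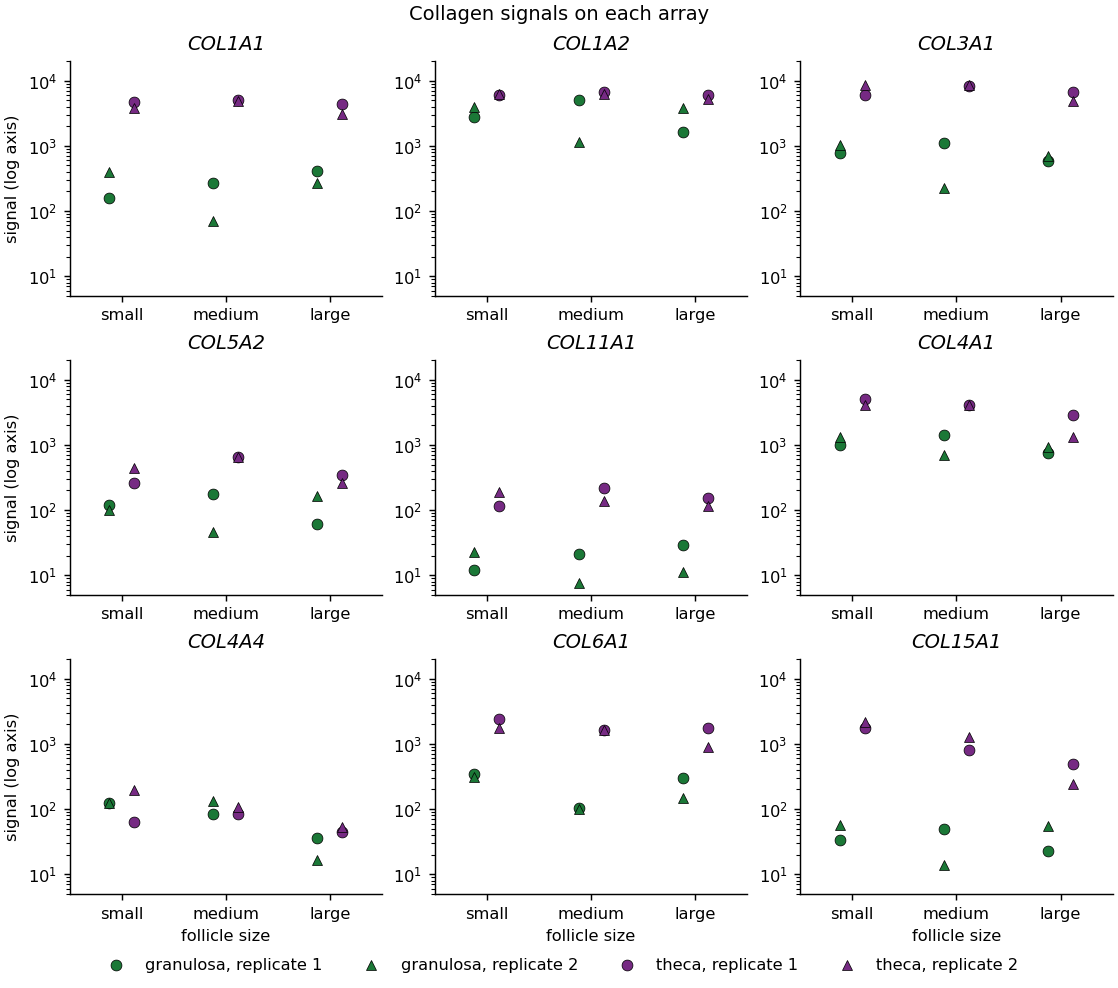
Signal on each of 12 arrays (log axis) for 9 collagen genes by follicle size; green is granulosa, purple is theca, circles are replicate 1 and triangles replicate 2. COL1A1 and COL3A1 show a wide gap between the layers, COL1A2 a narrow one, COL4A4 none, and COL15A1 runs down in theca from 1771 and 2188 in small to 485 and 243 in large follicles.

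Among the basement membrane collagens, 1 of 3 tested genes differed between the layers. COL4A1 encodes a chain of the type IV network present in nearly all basement membranes. Granulosa arrays gave 994 and 1309.6 in small, 1428 and 711 in medium, and 757 and 927 in large follicles. Theca gave 5089.7 and 4096, 4132 and 4093, and 2926 and 1325. Large theca replicate 2 alone fell into the granulosa range. The difference was -1.74 ± 0.24 (3.34-fold, limma adjusted p = 0.000177), and -1.87 on the second probe set, whose layers did not overlap.

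COL4A3 and COL4A4 belong to another type IV network, best known from the kidney glomerulus. COL4A4 was near level between the layers (-0.13 ± 0.25, limma adjusted p = 0.734). It read 126 and 126 in small, 82.9 and 135 in medium, and 35.4 and 16.7 in large granulosa. In theca it read 63.6 and 196, 83.1 and 107, and 45.2 and 53.0. The large arrays were the lowest of each layer. COL4A3 was dim, at 6.7 to 35.7 in granulosa and 13.2 to 25.1 in theca (0.27 ± 0.21, limma adjusted p = 0.364). The layer difference of COL4A1 was unequal to that of COL4A3 by -2.01 and to that of COL4A4 by -1.61 (exact permutation test, adjusted p = 0.0259 for each). COL4A3 lay around the filter signal of 22.5, so a layer difference in it could hardly show. COL4A3 and COL4A4 differed from each other by 0.40 (exact permutation test, adjusted p = 0.12).

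The beaded filament collagen COL6A1 was far lower in granulosa. Its signals were 352 and 313 in small, 103 and 102 in medium, and 303 and 148 in large granulosa, against 2374 and 1781, 1641 and 1634, and 1770 and 890 in theca. The layers did not overlap, and the difference was -2.95 ± 0.23 (7.74-fold, limma adjusted p = 7.65e-07). Of its dimmer probe sets, 1 gave -1.01 and was called and the other gave -0.18 and was not. Both passed the filter through theca groups only. COL6A2, its partner chain in type VI collagen, showed no such gap. It was 4.6 to 75.7 in granulosa and 34.9 to 52.2 in theca on its brightest probe set (-0.22 ± 0.29, limma adjusted p = 0.604). On the brightest probe sets the inequality of the 2 chains was -2.73 (exact permutation test, adjusted p = 0.0216). Both COL6A2 probe sets were dim, and the dimmer COL6A1 probe sets also gave smaller differences than the brightest one.

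The fibril-associated collagens did not pass on their brightest probe sets. COL12A1, which links fibres in dense tissue, was 66.2 to 1067 in granulosa and 385 to 932 in theca. Granulosa medium gave both ends of its range, 1067 and 66.2. Its difference was -1.20 ± 0.49 (limma adjusted p = 0.091). Without granulosa medium replicate 1 it was -1.82 and called (limma adjusted p = 0.00144), and without granulosa medium replicate 2 it was -0.58 (0.214). With all arrays, a second probe set gave -1.22 ± 0.32 and was called (limma adjusted p = 0.0134). COL21A1 was 203 to 996 in granulosa and 634 to 1511 in theca (-0.56 ± 0.27, limma adjusted p = 0.139). COL9A1, a cartilage collagen, did not pass the filter, with signals of 0.3 to 19.0 on its 2 probe sets.

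COL15A1, a multiplexin of the basement membrane zone of vessels and muscle, had a layer difference close in size to that of COL1A1. Granulosa arrays read 33.2 and 57.6 in small, 49.0 and 13.8 in medium, and 23.1 and 54.1 in large follicles. Theca arrays read 1771 and 2188, 803 and 1298, and 485 and 243. The difference was -4.13 ± 0.27 (17.5-fold, limma adjusted p = 1.72e-07), and -2.88 on the second probe set. That second probe set passed the filter through the theca groups only, so theca had to be its higher layer. COL18A1, the related chain that yields endostatin, was 32.2 to 155 in granulosa and 29.2 to 124 in theca, with a difference of 0.43 ± 0.31 (limma adjusted p = 0.328).

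Among the remaining types, the transmembrane collagen COL13A1 read 15.7 and 3.5 in small, 8.7 and 3.1 in medium, and 31.2 and 6.3 in large granulosa. In theca it read 109.9 and 42.6, 35.6 and 70.6, and 24.2 and 9.8, so the layers overlapped in large follicles. Its difference was -1.13 ± 0.27 (limma adjusted p = 0.00857), and it passed the filter only through small and medium theca. COL17A1, a hemidesmosome collagen of epithelia, gave 0.17 with signals up to 49.4. COL26A1, described from testis and ovary, gave 0.04 with signals up to 49.6. Both of these passed through 1 group alone. COL10A1, a collagen of hypertrophic cartilage, did not pass, at 1.8 to 26.2.

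Within each size the layers differed in the same direction for most called genes. In small follicles 12 of 36 collagen probe sets were called lower in granulosa and 0 higher (background 4.98% lower and 3.97% higher). In medium follicles 12 were called lower and 0 higher (4.09% and 1.71%). In large follicles 7 were lower (background 2.34%) and 1 higher (1.91%). COL1A1 gave -4.00, -4.99 and -3.38 in small, medium and large follicles (standard error 0.51 each), and COL3A1 gave -3.01, -4.01 and -3.11 (0.53). COL6A1 gave -2.58, -3.80 and -2.48 (0.39), COL11A1 -2.30, -2.68 and -2.10 (0.39), and all 4 were called in every size. COL11A1 passed the filter through theca groups alone, so its direction was tied to the filter.

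COL15A1 was also called in every size, with differences of -5.04, -4.56 and -2.78 (standard error 0.47). COL4A1 was called in small (-1.99 ± 0.42, limma adjusted p = 0.0105) and medium follicles (-2.01, adjusted p = 0.0103) but did not pass in large ones (-1.22, adjusted p = 0.117). COL5A2 was called in medium follicles (-2.61), COL5A3 in small (-1.30) and medium ones (-1.61), and COL13A1 in small ones (-1.79). COL5A3 and COL13A1 passed the filter through small and medium theca alone, so their direction there was tied to the filter. In small follicles COL5A3 and COL13A1 each lost the call under 6 of 14 alternatives. Without theca small replicate 1 COL13A1 was -1.24 (limma adjusted p = 0.204) and COL5A3 -1.13 (0.158), and leaving out either granulosa small replicate ended both calls, at adjusted p-values of 0.0619 and 0.232 for COL13A1 and 0.114 and 0.157 for COL5A3. In medium follicles COL4A1, COL5A2 and COL5A3 each lost the call without granulosa medium replicate 2 or either theca medium replicate. Calls over all probe sets fell in those fits too. No collagen's layer difference was shown to depend on size: with limma, 0 of 36 probe sets were called in any of the 3 contrasts of the size changes between layers. The background there was 0% for medium against small, 0.0229% for large against medium and 0.0114% for large against small. At an unadjusted p under 0.05 these contrasts held 1 probe set for medium against small, 8 for large against medium, and 6 for large against small, of 36. Over all 17478 probe sets they held 432, 1296 and 1830. In large follicles the count of calls was 5 once granulosa large replicate 1 was left out, with calls over all probe sets going from 743 to 280. It was 2 once theca large replicate 1 was left out, with 192 over all probe sets, which left COL3A1 (limma adjusted p = 0.0601), COL6A1 (0.0600), COL11A1 (0.104) and COL15A1 (0.0707) without a call there. In small follicles COL4A1 gave -1.83 in place of -1.99 without the pair of arrays that stood apart in RNA measures. COL4A1 then lost its call there (adjusted p = 0.067), as it did without theca small replicate 1 (0.0723) or granulosa small replicate 1 (0.0760).

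Growth of the follicle moved few collagens past the test. In granulosa, large against small follicles gave 1 call among 36 probe sets in either direction, where 378 of all 17478 were called. The collagen call was a lower one, and 0.389% of all probe sets were called lower. This was COL4A4, lower in large follicles at a difference of -1.79 ± 0.43 (3.46-fold, limma adjusted p = 0.0469), from 126 and 126 to 35.4 and 16.7. Both large arrays were below both small arrays. In the same contrast all 15 tested immune markers were called higher (median 3.44), with sums of 16495 and 6539.5 against 670 and 692. Granulosa markers were mixed: KRT18 was called lower (-2.16), while CYP19A1 read 113 and 126 in small and 3134 and 1820.5 in large granulosa. The sums of the 15 granulosa markers were 26239.5 and 33083.5 in small and 40278 and 26207 in large granulosa. The part of immune and granulosa cells in the COL4A4 value was not tested. Leaving out any 1 of the 4 arrays compared leaves 1 array in a group, and calls over all probe sets changed in each such fit too. The COL4A4 call ended in all of these fits. The value then ran from -1.47 to -2.12. It also ended with log2(signal + 1) (adjusted p = 0.0868), log2(signal + 64) (0.126) and no filter on dim signals (0.0715). COL11A2, which had passed the filter through large granulosa alone, gave 1.26 ± 0.31 without a call (limma adjusted p = 0.0518), and was called with log2(signal + 1) (adjusted p = 0.0286), without the filter (0.0497) and without granulosa large replicate 2 (0.0265). Medium against small, and large against medium, gave 0 calls among collagens with limma (background 0.00572% and 0.664%), with 1 and 6 of 36 at an unadjusted p under 0.05, where 581 and 2023 of all 17478 were.

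In theca the collagen signals were lowest in large follicles for many genes, but limma called 0 of 36 in any pair of sizes. The background was 0.0114% for medium against small, 0% for large against medium and 0.0343% for large against small, and 1, 7 and 10 of 36 had an unadjusted p under 0.05, where 1065, 536 and 1763 of all 17478 did. In large against small theca 10 collagen probe sets had an unadjusted p under 0.05 and were lower, where 5.33% of all probe sets did so. Both large arrays lay below both small arrays for 19 of 36 collagen probe sets, with 23.6% for all probe sets. The median difference over the 21 genes was -0.36, and that over all tested probe sets was -0.04. COL15A1 gave -2.46 ± 0.47 (limma adjusted p = 0.0946), with small, medium and large theca in falling order and no overlap between the sizes. COL27A1 went from 1275 and 469 in small to 436 and 319 in medium and 175 and 140 in large theca (-2.20 ± 0.56, limma adjusted p = 0.237). COL5A3 gave -1.77 ± 0.35 (limma adjusted p = 0.137), COL13A1 -1.42 ± 0.47 (adjusted p = 0.364) and COL4A1 -1.21 ± 0.42 (adjusted p = 0.371).

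The fibrillar chains COL1A1 (-0.23), COL1A2 (-0.12) and COL3A1 (-0.36) had smaller differences between large and small theca. Without theca small replicate 2, 5 collagen probe sets were called in this contrast, while calls over all probe sets went from 6 to 593. Small theca is then 1 array, assumed to vary like the other groups, and it is the one with the GAPDH ratio of 8.36. COL15A1 (-2.31, limma adjusted p = 0.0462), COL27A1 (-2.90, adjusted p = 0.0275) and COL5A3 (-1.93, adjusted p = 0.0297) were among the genes called. Without theca large replicate 2, COL4A1 gave -0.64 in place of -1.21. The large minus small value of COL15A1 was 2.26 higher in granulosa than in theca, and that difference did not pass (limma adjusted p = 0.231).

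**Figure D3:**
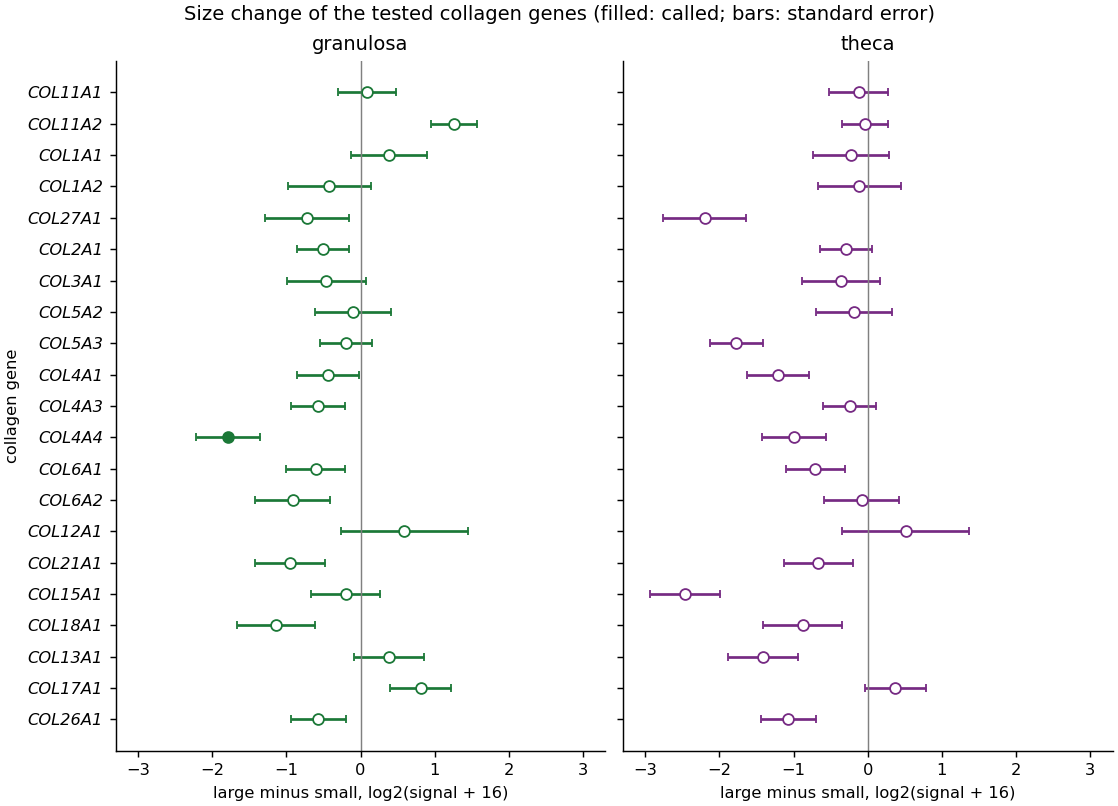
Large minus small follicles (log2(signal + 16), bars are standard errors of the limma model) for the 21 tested collagen genes, granulosa on the left and theca on the right; filled points are called. COL4A4 in granulosa, at -1.79, is the single filled point, and COL15A1 in theca, at -2.46, is the lowest point without a call.

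A few arrays held the lowest values of many collagens. Granulosa medium replicate 2 was the lowest granulosa array for 10 of the 11 genes called between the layers, and theca large replicate 2 the lowest theca array for 9 of them. Some marker sums were low on these arrays, and others were not. The 11 fibroblast and stroma markers summed to 714 on granulosa medium replicate 2, against 1238 to 3006 on the other granulosa arrays and 12537 to 15016 on theca arrays. The 13 endothelial markers summed to 656.5 on theca large replicate 2 and 1183 on theca large replicate 1, against 1749.6 to 2505 on small and medium theca and 178 to 804 in granulosa. The fibroblast and stroma sum on theca large replicate 2 was 12572, which was not the lowest in theca. Its smooth muscle and pericyte sum was 16723.5, above both small theca arrays (13467 and 11136). As given above, theca large replicate 2 also had the highest granulosa marker sum in theca. The part of these cell types in the collagen values was not tested. An alternative chosen after seeing the data left out granulosa medium replicate 2 and theca large replicate 2, so 1 array stayed in each of these groups. The layer difference over all sizes was then -0.84 for COL1A2, -0.79 for COL27A1 and -0.65 for COL5A3. With all arrays it was -1.16, -0.99 and -0.88.

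The layers differed in the same markers. Lower in granulosa over all sizes were 9 of 11 tested markers of fibroblasts and stroma (median -3.14), 10 of 12 of endothelium (median -1.78), and 7 of 11 of smooth muscle and pericytes (median -1.26). Over all tested probe sets 11% were called lower, and the median was 0.10. In large against small theca, 11 of the 12 endothelial markers had a negative difference, where 53.7% of all tested probe sets did. Their median was -0.96, beside -0.04 for all tested probe sets. Limma called 0 of them, where 0.0343% of all were called. In that contrast the medians were 0.42 for smooth muscle markers and -0.10 for those of fibroblasts and stroma, with 0 called in either. Of 15 granulosa markers CYP19A1 (5.70) and INHBA (4.54) were called higher in large theca, where the granulosa marker sums were 16802 and 26357, against 6914 and 8390.0 in small theca. The list was mixed. Both large theca arrays were below both small ones for AMH, HSD17B1 and KRT18 (138 and 56.7 against 292.5 and 221 for KRT18). CYP19A1 also rose within granulosa, from 113 and 126 in small to 3134 and 1820.5 in large follicles. The part of these cell types in the theca values was not tested.

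**Figure D4:**
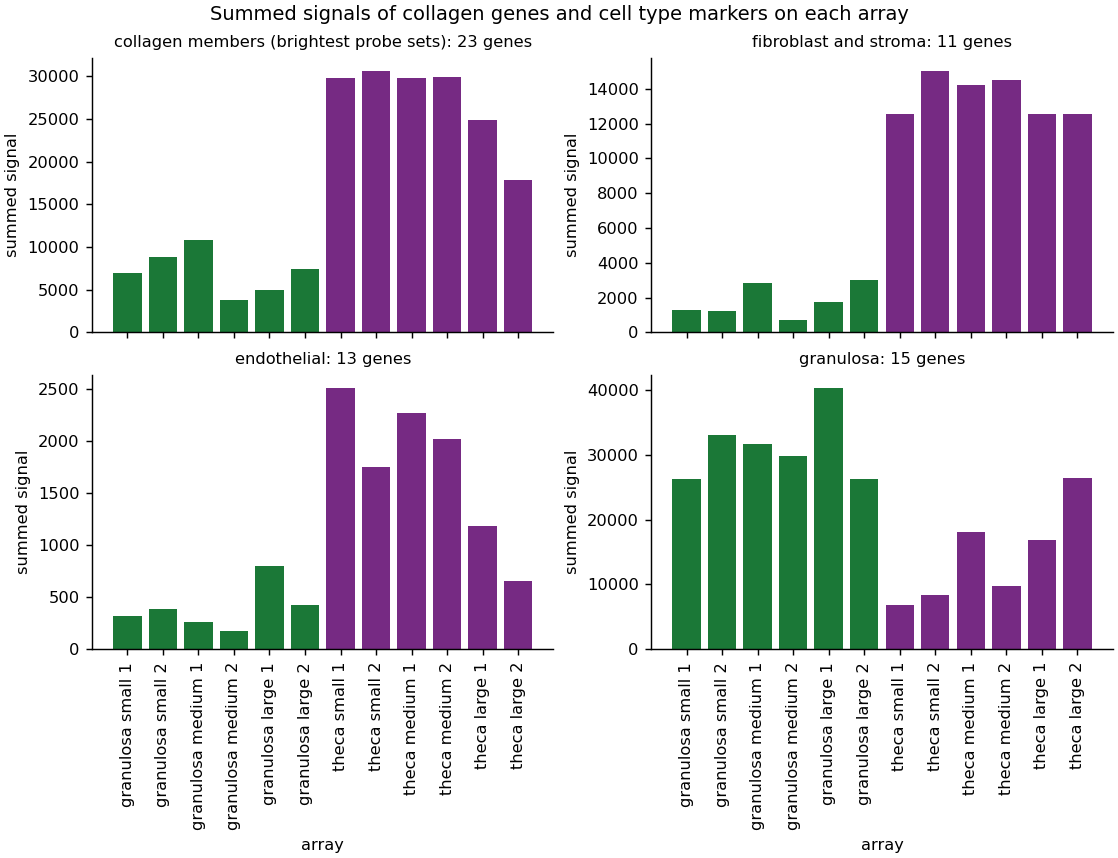
Summed signals on each array for the 23 collagen genes and for 3 marker lists; green bars are granulosa and purple bars theca. Collagen sums run from 3822 to 10765 in granulosa and from 17820 to 30576 in theca, and the lowest collagen bar of each layer is granulosa medium replicate 2 and theca large replicate 2.

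Of 26 tested genes that build and cross-link collagen 12 were lower in granulosa and 3 higher (median -0.36), beside 11% lower and 13.2% higher over all probe sets. The lower ones were led by LOX, which cross-links collagen and elastin fibres (-3.05 ± 0.21, 8.27-fold, limma adjusted p = 2.9e-07), P4HA3, a prolyl hydroxylase subunit (-2.41 ± 0.35), LOXL1, a relative of LOX (-2.26), and the transglutaminase TGM2 (-1.62). LOX was called in each size, at -2.32, -3.46 and -3.37. The higher ones were PLOD2, a lysyl hydroxylase (2.04 ± 0.45, 4.11-fold, limma adjusted p = 0.00506), COLGALT1, which puts galactose on hydroxylysine (1.19), and PCOLCE2, an enhancer of procollagen cleavage (0.88). The chaperone SERPINH1 gave 0.12 and the hydroxylase subunit P4HB 0.13, and neither was called. Between sizes 0 of the 26 were called in either layer with limma.

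Of 6 tested collagen receptors 2 were higher in granulosa and 1 lower, with the same shares of 13.2% and 11% over all probe sets. ITGA2, the alpha subunit of a collagen-binding integrin, was higher by 1.63 ± 0.27 (limma adjusted p = 0.000736), ADGRG1 by 0.66, and ITGA10 differed by -0.55. Of 15 tested genes of collagen breakdown 2 were higher, a share near that over all probe sets, and 4 lower. MMP2, a gelatinase, was lower in granulosa (-2.55 ± 0.36, 5.86-fold, limma adjusted p = 0.000192), as was the inhibitor TIMP2 (-0.95), while TIMP1 (0.94) and MMP9 (0.66) were higher. In large against small granulosa MMP9 (1.67), the protease CTSK (1.81) and CD44 (2.12), a matrix receptor, rose. Over all 17478 tested probe sets 378 were called in this contrast, in either direction. The rise of the immune markers in this contrast is given above, and the part of immune cells in these 3 genes was not tested.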

How the data were processed

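The deposited series matrix holds linear signal intensities for every probe set, scaled by the authors, as the values themselves show: the mean after trimming 2% at each end was near 125 on every array. RNA was biotin-labelled total RNA, per the labels. The scanner software is not given in the sources used here. Of 24128 probe sets 112 were array controls and stayed out. Symbols came from the platform annotation. All 48 collagen probe sets had an Entrez identifier known to the RefSeq table of ARS-UCD2.0, and 0 symbols changed. Sequences of the members were not used here.

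Signals were turned into log2(signal + 16). Testing required a mean signal above 22.5 in some group, the 40th percentile of all signals. Of the collagen probe sets 36 passed and 12 did not. Of the 36, 8 passed through 1 group alone. All 12 arrays entered a single limma model of 6 group means (limma 3.58.1, R 4.3.3), without trend, with 6 residual and 7.98 prior degrees of freedom. Benjamini-Hochberg adjustment ran over all tested probe sets within each of 13 contrasts. The procedure was tested on simulated data. The number of arrays limits the precision. Plots used matplotlib 3.10.9 and Python 3.11.15.

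The brightest probe set stood for a gene. Every member is named; those called between the layers get each array's value for at least the 4 largest changes of a structural group, and the others mostly their range. Of each companion list the 4 called genes with the largest change are named; TGM2, COLGALT1, PCOLCE2, SERPINH1 and P4HB were named after their values were seen. The members, gene lists and named-gene rule were chosen with earlier results of these data known. Alternatives were the pseudocount, the filter, quantile normalization, an intensity trend, a replicate block, fits of the compared groups alone, and leaving arrays out.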

Additional observations from a re-analysis of the deposited data

Results flagged for a closer look

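Among 42 sets of 6 arrays (21 collagen genes in each layer), 4 held an array far from the others on the log2(signal + 16) scale, by a gap divided by the range above Dixon's critical value for 6; chance flags about 1 in 20 such sets. COL12A1 on theca small replicate 1 was 385, against 681 to 932 on the other theca arrays (gap over range 0.643). That array also had the GAPDH 3' over 5' ratio of 8.36, and the part of RNA quality was not tested. COL4A3 on granulosa large replicate 2 was 6.7, against 27.3 to 35.7 (0.785). COL5A3 on granulosa medium replicate 2 was 0.8, against 11.1 to 19.0 (0.651). COL17A1 on theca small replicate 2 was 1.8, against 14.8 to 25.9 (0.640). The last 3 genes are dim there, near or below the filter signal of 22.5.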

How the results depend on the processing

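Values were recomputed for genes called in a contrast and for genes with a large difference but no call, which cannot lose one. Of 1307 gene values recomputed under an alternative, 1218 kept their direction and their side of the threshold, 69 lost the call, 16 gained one and 4 changed sign. Those 4 were COL12A1 in medium follicles, granulosa minus theca (0.29), and COL3A1 in the medium minus small difference between layers (0.10), each without granulosa medium replicate 2 and without it and theca large replicate 2 together; neither was called with all arrays. Leaving out medium replicates of granulosa in turn, COL12A1 ran from -3.43 to 0.29 and COL3A1 from -2.11 to 0.10. Over all sizes, COL1A1, COL3A1, COL4A1, COL5A2, COL6A1, COL11A1, COL13A1 and COL15A1 kept their calls under all 21 alternatives run.

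Counts of collagen calls, leaving out 1 array at a time, ran from 17 to 20 over all sizes, from 8 to 14 for small, 8 to 16 for medium and 2 to 9 for large follicles. They ran from 0 to 2 in granulosa for large against small and for large against medium, 0 to 5 in theca for large against small, and stayed at 0 in the other contrasts. The count for granulosa large against small became 0 with log2(signal + 64) and without granulosa medium replicate 2 and theca large replicate 2 together. It stayed at 1 with log2(signal + 1) and with no filter, but there COL11A2 was called and COL4A4 was not. Of the unequal chain pairs, COL5A2 against COL5A3 (-0.97, exact permutation test, adjusted p = 0.0324) did not pass with log2(signal + 1) (-0.51, adjusted p = 0.417). Calls over all probe sets moved between these fits as well. The cause of these changes was not tested.

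The labels do not say that replicate numbers pair the samples. Differences between replicates 1 and 2 correlated between groups from -0.33 to 0.40 over 15 pairs of groups. Within a layer the correlations ran from 0.07 to 0.40, and between the layers from -0.33 to 0.14. The replicate block has a term shared by both layers, so it cannot take up shifts that run opposite ways in them. With the replicate block 20 collagen probe sets were called over all sizes, with 12 for small, 13 for medium and 8 for large follicles, and the count was otherwise as without it. With groups of 2 arrays, smaller changes with size may go undetected.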
